A study of Drosophila melanogaster with 4 samples.

Results

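The right arm of chromosome 3, 3R, was examined for regions enriched in histone H4 in late embryos of Drosophila melanogaster. Its members were all regions named as enriched on 3R whose first base lay above 400000 in FlyBase release 5 coordinates. By this rule there were 3875 of 15405 regions in replicate 1 (25.2%), 3279 of 12952 in replicate 2 (25.3%) and 5492 of 22525 in the combined list (24.4%). The rule left out the 64, 56 and 69 regions of the 3 lists nearest the centromere and took in 27.5 Mb of the arm. No list had a region starting between 386869 and 447865. The last region left out in replicate 1 began at 376605 (1311 bp), and the first one kept began at 447865 (1703 bp). In replicate 2 these began at 362928 (1545 bp) and 447961 (1596 bp).

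All groups shared 1 background: wild-type embryos of the strain Oregon-R (Oregon-R-modENCODE), collected at 14 to 16 h and crosslinked with 1.8% formaldehyde. The 4 libraries were 2 chromatin immunoprecipitations (ChIP) with an antibody to H4 and 2 input libraries of genomic DNA, the inputs being the controls of the ChIP libraries with the same number. Whole embryos hold many tissues, so a higher H4 signal in some cells and a lower one in all cells cannot be told apart. Whether each replicate had its own embryo collection is not stated, and the SDs given here may therefore reflect technical spread only. No read counts were used, and the depth of the libraries is unknown.

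Histone H4 is a core subunit of the nucleosome, the spool of histones around which DNA is wound, and it pairs with histone H3 at the centre of that spool. Immunoprecipitation of H4 reports where nucleosomes are recovered with DNA, and it often serves as the reference against which marks on H4 tails are read. Enrichment over input is a relative measure and is not a count of nucleosomes. Chromosome 3 is a large autosome, and its right arm carries both homeotic gene complexes of the fly. In release 5 coordinates the low end of 3R is its centromere side and the high end its telomere side, whereas 2L, 3L and X run the other way.

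Arm 3R had more of its length in H4-enriched regions than 2L, 3L or X in both replicates. It had more regions per Mb, set closer together, while their widths and scores were near those of 2L and 3L. The arm held 10.3 Mb of enriched sequence in replicate 1 (37.3% of the described length) and 8.16 Mb in replicate 2 (29.6%), a mean of 33.5% ± 5.39 (SD, n = 2). On 2L, 3L and X together the shares were 28.1% and 21.9%. The difference was 9.15 percentage points in replicate 1 and 7.74 in replicate 2, or 8.44 ± 1.00 (SD, n = 2). This lead over the pooled arms exceeded the spread of the difference between the replicates and the spread of 3R itself. Those spreads are over libraries and do not measure how much arms vary. The means of the other arms were 21.1% on X, 25.8% on 2L and 27.9% on 3L. Against single arms the mean difference was 5.55 points for 3L, 7.70 for 2L and 12.4 for X. Replicate 2 of 3R, with 29.6%, lay above replicate 1 of 2L (28.4%) and of X (24.4%) but below replicate 1 of 3L (31.2%), so the values of 3R and 3L overlapped across replicates. 3R was higher in 2 of 2 replicates against each arm, for which an exact two-sided sign-flip test over the libraries gave p = 0.5, the smallest p that 2 libraries allow. When only the upper 50% of scores in a list were kept, 3R had 19.8% and led the pooled arms by 3.21 points.

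By number, 3R had 141 and 119 regions per Mb in replicates 1 and 2, against 109 and 89.6 on 2L, 3L and X together, or 1.30 and 1.33 times as many. The mean of 130 per Mb became 55.8 with the higher scoring 50% of each list, 64.0 with regions of at least 2000 bp and 199.7 in the combined list. Median widths differed little, with 2002 and 1966 bp on 3R and 1978 and 1933 bp on the other arms. The arms did not keep 1 order of width: the median of 3L was 1976 bp in replicate 1, under that of 3R, and 1985.5 bp in replicate 2, above it. Each region also came with a score from the authors. Its zero point is not stated, but its values behaved as base-2 logarithms, so that a difference of 1 stands for a factor of 2. The median score of 3R, 0.55 and 0.57, was within 0.01 of the medians of 2L and 3L in both replicates. X stood above it by 0.10 in each, a factor of 1.07.

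Along the arm, dense domains took up much of the telomere side, while sparse domains were few. The described length was cut into 275 windows of 100 kb, and the covered share (the percentage of a window's bases inside regions) was taken in each replicate. A window was called dense where its share reached the 75th percentile of the windows of 2L, 3L and X in both replicates (38.7% and 30.9%), and sparse where it was at or under the 25th (15.5% and 10.7%). On 3R 107 windows were dense, or 38.9%, against a background of 20.9% of the 699 windows on the other arms. Sparse windows numbered 21, or 7.64%, against a background of 21.9%. With the higher scoring 50% of each list, 12.7% were sparse against 18.9%. Single arms had 24.3% (2L), 26.1% (3L) and 11.6% (X) dense windows and 20.0%, 15.5% and 30.8% sparse ones.

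**Figure D1:**
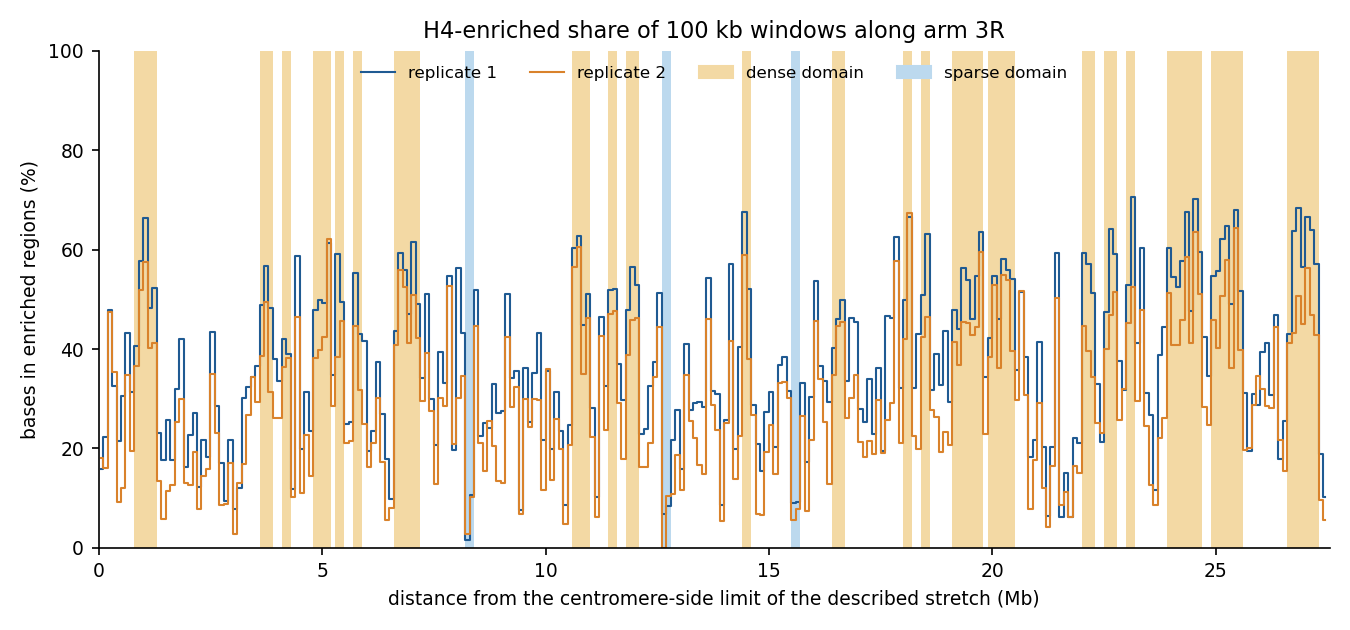
Percentage of bases in H4-enriched regions in each of 275 windows of 100 kb along 3R, plotted against the distance in Mb from the limit at base 400000, for replicate 1 (blue) and replicate 2 (orange). Shading marks the 22 dense domains (tan) and the 3 sparse domains (light blue), and the widest dense domains lie at the right, on the telomere side.

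The replicates placed these windows alike. Replicate 1 alone had 125 dense windows and replicate 2 had 117, of which 107 were common to both, and no window dense in one was sparse in the other. For sparse windows the numbers were 23, 29 and 21. Across the 275 windows the shares were correlated with r = 0.94 (Pearson) and rho = 0.95 (Spearman), and replicate 1 was higher in 256 of them. Neighbouring windows lie on the same libraries, and these correlations are descriptions. The spread of shares on 3R, with an SD of 16.1 and 14.9 percentage points over windows, was close to that of the other arms (16.0 and 14.2). The median window had 35.7% and 28.6% on 3R and 26.5% and 19.4% on 2L, 3L and X. The highest window of 3R had 70.7% in replicate 1, under the maxima of 2L (81.1%), X (78.1%) and 3L (92.7%). In replicate 2 it had 67.4%, under 2L (69.4%) and 3L (81.3%) but above X (60.6%).

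**Figure D2:**
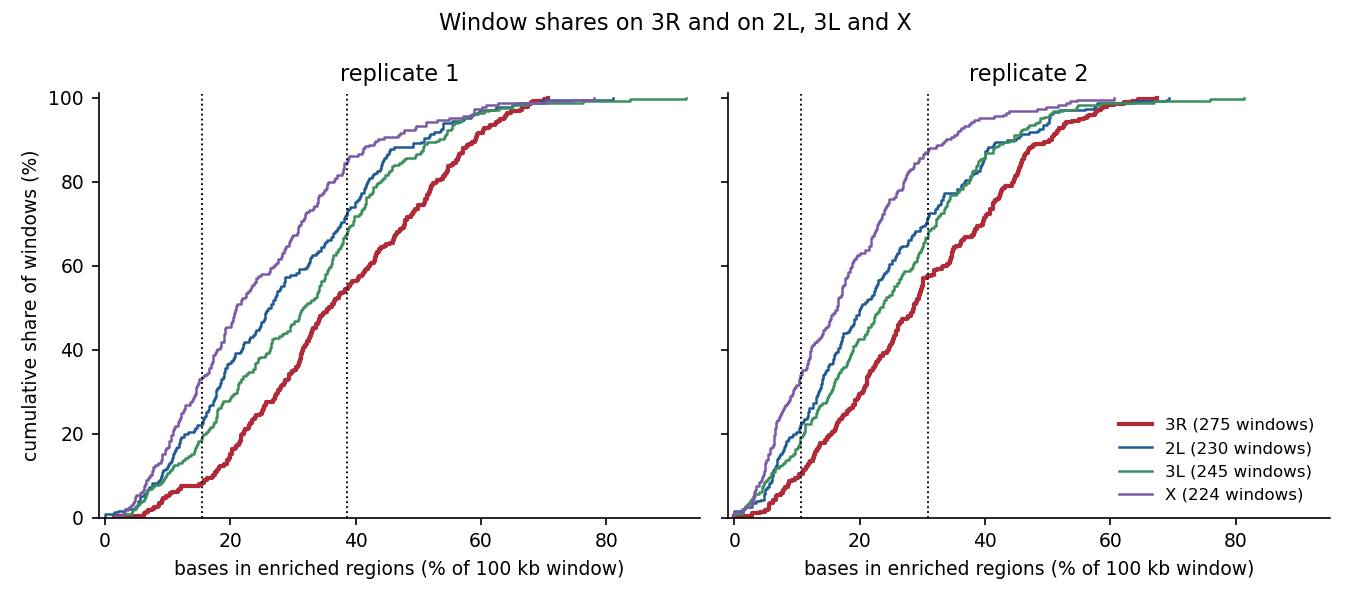
Cumulative percentage of windows of 100 kb (vertical axis) at or below a given percentage of bases in enriched regions (horizontal axis), for 3R and for each of 2L, 3L and X, 1 panel for each replicate. Dotted lines mark the limits for sparse and dense windows, and the 3R curve lies to the right of the others through most of the range until the uppermost windows.

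Dense windows came in 44 runs, 22 of them single windows and 22 of at least 2 windows, the dense domains. Runs form more readily where more windows are dense, and the number expected without clustering was not computed. Adjacent windows were also less alike on 3R (r = 0.42 and 0.39 in replicates 1 and 2) than on 2L, 3L or X. The domains held 85 windows and spanned 8.50 Mb, 30.9% of the described length, against 17.4% of 2L, 17.9% of 3L and 6.69% of X. The longest ran from 24300001 to 25100000 (800 kb), where regions covered 58.7% of the bases in replicate 1 and 49.1% in replicate 2. It held 141 and 137 regions with median widths of 2333 and 2123 bp. The next by length, 700 kb each, ran from 19500001 to 20200000 (52.4% and 45.1%), from 25300001 to 26000000 (58.0% and 47.9%) and from 27000001 to 27700000 (59.9% and 46.6%). The 600 kb from 7000001 to 7600000 (52.8% and 47.3%) was the longest dense domain of the centromere side. A domain from 20300001 to 20900000 (51.8% and 46.0%) was equally long. All of these named domains had a lower share in replicate 2 than in replicate 1.

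Among single windows, that from 18500001 to 18600000 had the highest mean share, 66.6% in replicate 1 and 67.4% in replicate 2. This window had 13 and 14 regions and lay outside the domains named above. It was followed by those from 24900001 to 25000000 (70.1% and 63.5%) and from 25800001 to 25900000 (68.0% and 64.4%). Both of the latter lay in named domains. These 3 were picked with their values known.

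Sparse windows were scattered. Of their 18 runs, 15 were single windows, and the 3 sparse domains were 200 kb each, 0.600 Mb in all. The other arms held 34 sparse domains with up to 500 kb, over 12.6% of 2L, 8.56% of 3L and 20.96% of X, compared with 2.18% of 3R. The sparse domain from 8600001 to 8800000 had 6 and 7 regions over 6.11% and 6.51% of its bases. That from 13000001 to 13200000 had 10 and 7 regions (7.68% and 5.17%), with no region of replicate 2 in its first 100 kb. The third, from 15900001 to 16100000, had 11 and 8 regions (9.12% and 6.71%). Dense and sparse windows touched each other directly at 8 of the 274 borders between windows.

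At the scale of 1 Mb, the arm was tiled from the limit in 28 windows, of which the last is shorter. Ranked by the mean of both replicates, the highest window was that from 24400001 to 25400000, with 54.1% and 44.1% in replicates 1 and 2. It was followed by 19400001 to 20400000 (47.2% and 39.8%), 25400001 to 26400000 (46.2% and 39.2%), 22400001 to 23400000 (46.2% and 36.3%) and 20400001 to 21400000 (43.4% and 37.5%). All 5 began at 19400001 or beyond. In replicate 1, however, the windows from 18400001 (45.3%), 5400001 (44.4%) and 23400001 (43.8%) were above that from 20400001. By the mean of both replicates, the lowest was 2400001 to 3400000, with 22.2% and 16.3%, although 21400001 to 22400000 was lower in replicate 1 and in the combined list. Next came 21400001 to 22400000 (21.9% and 17.0%), 15400001 to 16400000 (25.7% and 20.5%), 12400001 to 13400000 (28.6% and 21.9%) and 8400001 to 9400000 (29.5% and 21.8%). The low window from 21400001 stood between 2 of the 5 highest, and 3 of its 10 windows of 100 kb were sparse while 1 was dense.

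The telomere side was the most covered part of the arm. Of 5 equal segments, the one at the telomere had 46.4% of its bases in regions in replicate 1 and 36.8% in replicate 2, against 33.9% and 26.6% in the segment at the centromere side, 1.37 and 1.38 times as much. The middle segment was the lowest, with 32.4% and 25.3%. Dense windows numbered 20, 17, 14, 23 and 33 of 55 in the segments from centromere to telomere, and sparse ones 4, 5, 7, 3 and 2. Region number and median score were highest at the telomere end: 165 and 148 regions per Mb and scores of 0.57 and 0.58. Median width was highest there too, with 2092.5 and 1984 bp. In replicate 2, however, the median widths of the segments differed little, from 1948 to 1984 bp, and ran from 1902 to 2092.5 bp in replicate 1. The covered share of the other arms was also highest in their telomere segment in both replicates. It was 1.58 and 1.67 times that of the centromere segment on 2L, 1.37 and 1.44 on 3L and 1.40 and 1.39 on X. A high telomere end was thus common to the 4 arms. The 3R share was above that of each other arm in all 15 comparisons by segment, in each replicate and in the combined list. Segments of 3R began after base 400000, whereas those of the other arms took in their centromere-side ends. With 400000 bases left out there, the lead of 3R over the 3 arms pooled was 8.19 points against 8.44. The segments were not compared in that way.

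**Figure D3:**
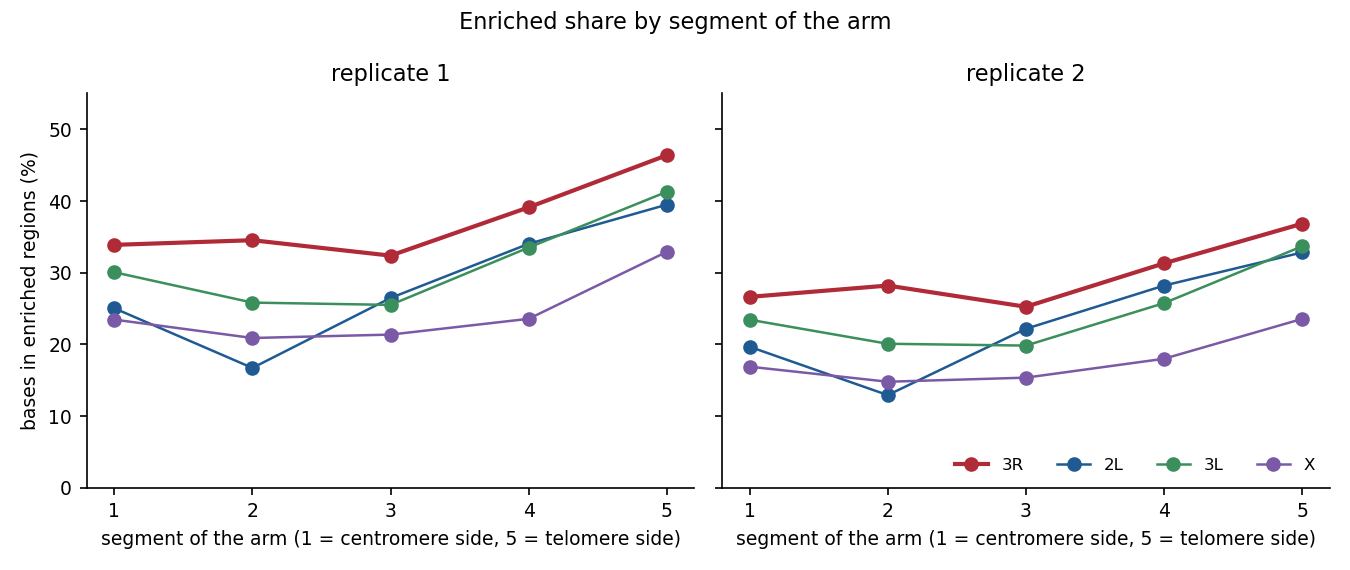
Percentage of bases in H4-enriched regions in each of 5 equal segments of 3R, 2L, 3L and X, ordered from the centromere side (1) to the telomere side (5), 1 panel for each replicate. The 3R line is above the others in every segment, and all 4 lines are highest at segment 5.

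Regions of 3R were of kilobase size and closely spaced. In replicate 1 the middle 50% of widths ran from 1574 to 3047.5 bp, and in replicate 2 from 1540 to 2900.5 bp, with 1301 bp as the narrowest in both. Regions under 2000 bp made up 49.7% of the members in replicate 1 and 51.97% in replicate 2 but 30.1% and 33.1% of their enriched bases. Those of 10 kb or more numbered 33 (0.852%) and 16 (0.488%), with 4.23% and 2.47% of the bases. The background on 2L, 3L and X was 0.947% and 0.638% of regions, so such broad regions were no larger a share of the regions on 3R than on these arms pooled. The share on 3R was under those of 2L (1.08% and 0.847%) and 3L (1.13% and 0.628%) and above those of X (0.549% and 0.398%). In the combined list they numbered 92 (1.68%, background 1.39%).

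Spacing differed more between 3R and the other arms than width did. The median gap between neighbouring regions was 2202 bp in replicate 1 and 2611.5 bp in replicate 2, 2407 ± 290 bp as a mean (SD, n = 2). Gaps on 2L, 3L and X together had medians of 2820 and 3551.5 bp, so that those of 3R were shorter in both. The mean median gap of 3R was 6378.5 bp with the higher scoring 50% of each list, and the combined list had 1183 bp. Gaps under 500 bp formed 18.3% and 17.2% of those on 3R, against 15.8% and 14.1% on the pooled arms and 17.1% and 15.2% on 3L. In replicate 1, 7 neighbours abutted with no base between them, and 2 did so in replicate 2. At the other extreme, gaps of at least 20 kb numbered 127 and 180 and took up 14.8% and 23.8% of the described length. On the other arms pooled they took up 29.6% and 41.4%, so the share of 3R was 0.50 and 0.57 times as large. Against 3L, the nearest arm (23.8% and 36.1%), it was 0.62 and 0.66 times as large. The 3L share in replicate 1 was level with the 3R share in replicate 2. The longest gap of replicate 1 ran from 8652687 to 8752460 (99.8 kb), and that of replicate 2 from 12991319 to 13110111 (119 kb), each inside or across a sparse domain named above.

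**Figure D4:**
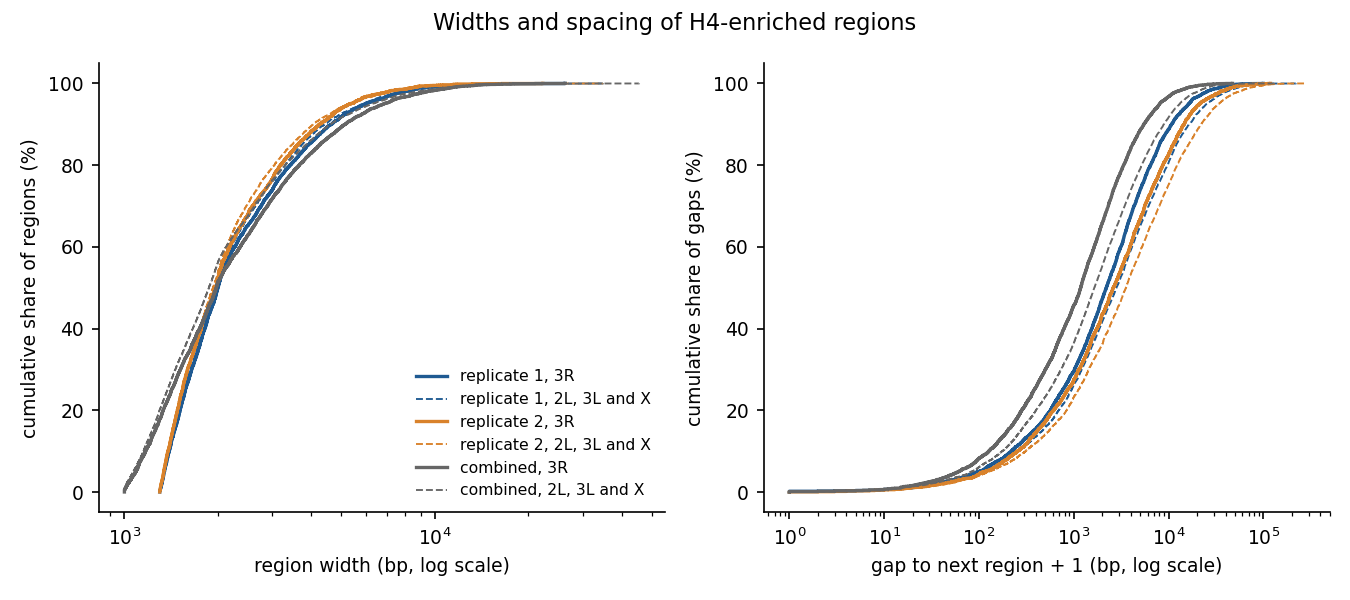
Cumulative percentage of regions by width (left) and of gaps by length plus 1 (right), both on log axes in bp, for replicate 1 (blue), replicate 2 (orange) and the combined list (grey). Solid lines are 3R and dashed lines 2L, 3L and X together; the solid and dashed width curves of a list lie close, whereas each solid gap curve lies left of its dashed one.

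Most of these long gaps held regions of the combined list, which covered 18.3% of their length in replicate 1 and 25.9% in replicate 2. Of the 127 gaps in replicate 1, 74 held no whole region of replicate 2, but only 12 held none of the combined list, with a median of 4 combined regions each. For replicate 2, 39 of its 180 gaps held no whole region of replicate 1 and 8 none of the combined list. Gaps in the combined list itself were short: the longest ran from 27816876 to 27864112 (47.2 kb), near the end of the arm. It was followed by gaps from 16062767 to 16103128 (40.4 kb), 10971823 to 11011320 (39.5 kb), 8293722 to 8328024 (34.3 kb) and 12098194 to 12131233 (33.0 kb). Neither replicate covered more than 0.035% of any of these 5.

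Dense and sparse windows differed in how many regions they held, how wide these were and how they scored. Coverage fixed the classes, so these values describe them. In replicate 1, dense windows had 176 regions per Mb with a median width of 2245.5 bp and sparse windows 49.5 per Mb with 1667 bp. For replicate 2 the values were 163 per Mb and 2149.5 bp against 36.7 per Mb and 1606 bp. Both number and width were thus lower in sparse windows of each replicate, and number by the larger factor. Median scores fell from 0.58 and 0.59 in dense to 0.49 and 0.52 in sparse windows of replicates 1 and 2. The medians in sparse windows were 0.51 and 0.52 on 2L, 0.49 and 0.53 on 3L and 0.61 and 0.62 on X, so 3R was near 2L and 3L there and X higher. The combined list differed: its dense and middle windows had like numbers, 201 and 206 regions per Mb, and dense ones had wider regions (2544 against 1841 bp) set closer together (median gap 802.5 against 1371 bp).

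Wider regions scored higher on 3R, with a Spearman rho of 0.74 over the regions of replicate 1 and 0.72 over those of replicate 2. Median scores in replicate 1 were 0.45 under 2000 bp, 0.64 from 2000 to under 5000 bp, 0.78 from 5000 bp to under 10 kb and 0.89 at 10 kb or more. Across windows, share and median score had a rho of 0.53 and 0.47, above the 0.28 to 0.38 of 2L and 3L and the 0.32 and 0.26 of X. No test of that difference was made. Windows share libraries and a score is measured on the same reads as the coverage.

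The replicates marked 7.12 Mb of 3R in common. This was 69.5% of what replicate 1 marked and 87.4% of what replicate 2 marked. By number, 2771 of 3875 regions of replicate 1 (71.5%, 95% Wilson interval 70.1 to 72.9%) touched a region of replicate 2, against a background of 69.5% on 2L, 3L and X. In the other direction 2922 of 3279 did (89.1%, 88.0 to 90.1%), against a background of 88.3%. Both shares are near the background, and the 3R value is close to those of 2L (71.8% and 87.8%) and 3L (70.4% and 90.0%). X was lower for replicate 1, with 65.6%. Intervals cover counting error alone, as if each region were independent, and the share that would touch by chance was not computed.

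Agreement, counted from 1 shared base, rose with score and width. A wide region meets another more readily by its length alone, and wider regions also scored higher. The share expected for a given width was not computed, so these values only describe the lists. Of the lowest scoring 25% of 3R regions in replicate 1, 51.5% touched replicate 2, and of the highest scoring 25%, 95.6% did. For replicate 2 these shares were 80.2% and 98.3%. From 5000 bp to under 10 kb, 280 of 281 regions of replicate 1 and 185 of 185 of replicate 2 were shared, and from 10 kb up 33 of 33 and 16 of 16. The other arms were alike, with 491 of 493 and 325 of 325 from 5000 bp to under 10 kb, and 50.6% and 92.1% in the lowest and highest scoring 25% of replicate 1. Regions without a partner were narrow: the 1104 of replicate 1 had a median of 1553 bp and a score of 0.47, against 2330 bp and 0.59 for the shared ones. The 357 of replicate 2 had 1458 bp and 0.50, against 2047 bp and 0.58.

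**Figure D5:**
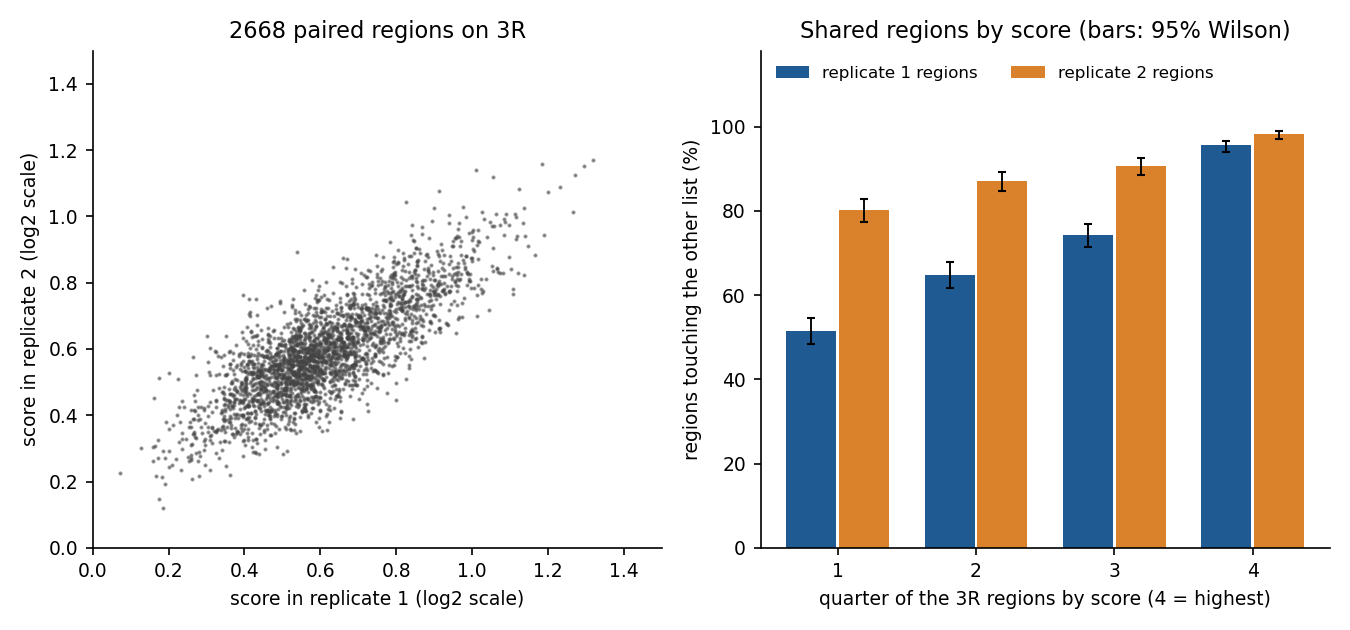
Left, scores of 2668 pairs of 3R regions, each the best overlap of the other, replicate 1 on the horizontal and replicate 2 on the vertical axis, both on a log2 scale. Right, percentage of 3R regions that touch the other replicate's list, for 4 classes of nearly equal size by score, with 95% Wilson intervals; both series rise from class 1 to class 4.

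Paired regions had like scores and edges. Over 2668 pairs on 3R, scores were correlated with r = 0.81 (Pearson) and rho = 0.77 (Spearman), and widths with rho = 0.74, across regions of the same 2 libraries. Among 2261 pairs with 1 partner on each side, the median width was 2213 bp in replicate 1 and 2002 bp in replicate 2, and replicate 1 was wider in 1569 (69.4%). Replicate 2 began a median of 54.0 bp further in and ended 57.0 bp further in. Starts lay within 200 bp of each other in 65.5% of pairs, ends in 68.5% and both in 46.8%. Of all regions of replicate 2, 39.2% lay wholly inside regions of replicate 1. Several regions of replicate 2 met 1 region of replicate 1 in 279 cases (7.20%), with up to 5, and the reverse held in 150 cases (4.57%).

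Of the regions without a partner, the 5 longest of each replicate are named. The longest region of replicate 1 with no base in replicate 2 ran from 27169235 to 27175623 (6389 bp, score 0.63), inside a dense domain. It was followed by regions from 11409756 to 11414676 (4921 bp), 16342474 to 16346993 (4520 bp), 1137702 to 1142149 (4448 bp) and 26068169 to 26072517 (4349 bp). For replicate 2 the longest such regions were shorter: 24812758 to 24816292 (3535 bp), 26890380 to 26893808 (3429 bp), 26263813 to 26267104 (3292 bp), 11477162 to 11480135 (2974 bp) and 12704821 to 12707720 (2900 bp). All 10 were in the combined list for at least 87.9% of their bases.

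Among paired regions, the score rank differed most at 21828105 to 21829675, which stood at percentile 12.9 in replicate 1 and at 84.98 in replicate 2, where it spanned 21827829 to 21830222. In the opposite direction, 13269418 to 13271882 stood at percentile 85.3 in replicate 1 and its partner at 14.5. The region from 8917587 to 8921485 stood at 77.9 and 9.42, that from 16408523 to 16410417 at 15.1 and 83.5, and that from 9564625 to 9566849 at 72.2 and 6.91. Of these 5, 3 ranked higher in replicate 1 and 2 in replicate 2. The pairs at 21828105 and 8917587 did not have 1 partner on each side. In each of them the wider region touched 2 regions of the other replicate.

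The combined list covered 54.6% of the described length, 15.0 Mb. Of its 5492 regions, 2474 (45.0%, 95% Wilson interval 43.7 to 46.4%) touched both replicate lists, against a background of 41.5% on 2L, 3L and X. A further 994 touched replicate 1 alone and 318 replicate 2 alone. The remaining 1706 (31.1%, 29.9 to 32.3%) touched neither, against a background of 34.3%. Single arms had 41.7% (2L), 44.6% (3L) and 37.6% (X) touching both. For neither, the shares were 35.2%, 31.7% and 36.3%, so 3R was near 3L in both respects. Regions found in both had a median width of 3240 bp and a score of 0.49 and made up 66.1% of the combined bases. Those found in neither had 1280 bp and 0.34 and made up 15.9%. Of the latter, 921 were under 1301 bp, the narrowest width on 3R in either replicate. The list was made from the same libraries, so it is no independent measurement of them.

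Regions in neither replicate were most frequent where the arm was sparse. They formed 19.9% of the combined regions in dense windows (95% Wilson interval 18.3 to 21.7%), 35.7% in middle windows (34.0 to 37.4%) and 62.0% in sparse windows (56.6 to 67.1%). The replicates cover less of a sparse window, so fewer combined regions can touch them there. The combined list also joined neighbours: 384 of its regions held or touched several regions of replicate 1 and 420 several of replicate 2, with 5 at most in each case.

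Of the 5492 combined regions, 2158 (39.3%) lay in each replicate for 50% or more of their length, and the longest and the highest scoring of these are named. All 20 had their midpoint in dense windows, as did 53.0% of the 2158 and 39.2% of all combined regions. A region of this length itself raises the coverage that makes a window dense. No region was in both sets. The longest ran from 20461554 to 20487892 (26.3 kb, score 0.94). Replicate 1 had it as a single region, from 20461628 to 20487908, and replicate 2 as 2 regions, the larger from 20461678 to 20483991, which were the longest of each replicate on 3R. The next were 25619801 to 25643785 (24.0 kb), with 2 and 4 regions in replicates 1 and 2, and 23487591 to 23509668 (22.1 kb), with 3 and 5. Further down came 20828208 to 20847958 (19.8 kb), 7179950 to 7197945 (18.0 kb), 11151023 to 11168631 (17.6 kb) and 19571567 to 19589089 (17.5 kb). The last of the 10 were 20145961 to 20162850 (16.9 kb), 20569550 to 20586034 (16.5 kb) and 8232082 to 8248531 (16450 bp). Of the 10, 5 lay between 19571567 and 20847958. Only the region from 8232082 was a single region in both replicates, with 99.0% and 99.5% of its bases covered.

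The highest scoring region ran from 20061032 to 20074273 (13.2 kb) with a score of 1.22. It also had the highest score on 3R in each replicate, 1.32 and 1.17, and was a single region in both. The next, 24919392 to 24932957 (13.6 kb), had 1.14. Shorter regions followed with scores from 1.07 to 1.11: 1304470 to 1309974 (5505 bp), 23411995 to 23417511 (5517 bp), 13514941 to 13520381 (5441 bp) and 24658385 to 24667236 (8852 bp). The last 4 had scores from 1.01 to 1.02 and ran from 23082423 to 23098028, 11146234 to 11150576, 24730736 to 24737621 and 7198018 to 7205098. Of them, the region from 7198018 began just past the long one that ended at 7197945, and that ending at 11150576 stood just before the long one from 11151023. Without the rule on coverage, the highest score of the combined list on 3R was 1.87, at 22966242 to 22967243, a region of 1002 bp that neither replicate called.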

How the data were processed

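Regions were taken from 3 deposited lists, 1 for each H4 ChIP library and 1 combined list. Bowtie 0.12.7 is named in the submitters' processing notes, and FlyBase r5 is the build per the file headers. Neither the caller of regions nor its threshold is named, and how the combined list was made is likewise not given in the sources used here. Coordinates are other values than measurements and were used as deposited by the authors, 1-based. The deposited score has no stated scale. Taken relative to the most frequent score of its list, 98.8% of scores in replicate 1, 96.3% in replicate 2 and 92.7% in the combined list were ratios of whole numbers when read as log2 (denominators up to 2000, tolerance 1e-10), and at most 0.741% when read as natural or base-10 logs. It was therefore read as log2 with an unknown zero point.

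Shares were computed per base from the base after 400000 to the arm end at 27905053 and over the whole of 2L, 3L and X. Regions were called shared where at least 1 base overlapped. A last window shorter than 50% of the window size was left out. Depth is unknown, so no counting interval for a region's signal was possible. The interval arithmetic was checked on simulated lists. Versions were 3.11.15 for Python, 2.4.6 for NumPy, 2.3.3 for pandas and 1.17.1 for SciPy. The members, the windows and the rule for named regions were chosen with earlier results of these data known. Named were the longest and highest scoring regions, the longest domains, gaps and unshared regions, the extreme windows of 1 Mb, the pairs with the largest difference in score percentile and the depleted regions of 3R. Arms were compared by an exact two-sided sign-flip test over the 2 libraries, added after the data were seen, which cannot give a p below 0.5. The gene table at hand used Release 6, so genes and sequences of these regions were not analysed here.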

Additional observations from a re-analysis of the deposited data

How the results depend on the processing

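No paired analysis was possible because the groups that share replicate numbers are ChIP and input, and the inputs have no list of regions here. No result had a test that could pass a threshold, so 59 alternatives over 12 results were read by size. Of these, 23 moved a value beyond the spread between replicates, its Wilson interval or 5% where neither exists (counts of windows, by over 1.5 times). A turned direction was found in 0, but only the lead over 2L, 3L and X was checked for one. Where the SD is the limit, leaving out 1 of 2 replicates cannot move a value, so those alternatives carry no information. With the higher scoring 50% of each list, 3R had a covered share of 19.8%, 55.8 regions per Mb, a lead of 3.21 points over 2L, 3L and X, a median width of 2958.5 bp, a median gap of 6378.5 bp and a Jaccard index (shared bases over bases in either list) of 56.9% against 63.2%. Shared were then 64.3% of replicate 1 and 79.97% of replicate 2, 42.2% of combined regions touched both, and 12.7% of windows were sparse against 18.9% on the other arms. Every list was cut for this, so a kept region could lose a partner with a lower score. These shares are therefore not the agreement of high scoring regions with the full lists. Regions of at least 2000 bp gave 22.9%, 64.0 per Mb and a lead of 6.12 points. Merging regions less than 500 bp apart gave 107 per Mb, 2122 bp wide and 3389.75 bp apart. The combined list gave 54.6%, 199.7 per Mb, a lead of 12.5 points and gaps of 1183 bp. Asking for 50% of a region shared gave 66.8%, 86.6% and 39.3% for replicate 1, replicate 2 and combined regions touching both. Leaving out 1 replicate gave shares from 29.6 to 37.3%, 119 to 141 regions per Mb and leads from 7.74 to 9.15 points. It also gave 42.5 to 45.5% dense and 8.36 to 10.5% sparse windows. On 2L, 3L and X, 25.04% of windows were then dense and 25.04% sparse, whichever replicate was left out. Dense windows ranged from 30.5 to 49.5% over the alternatives, above the other arms in each. With limits from 3L alone, an alternative added after the data were seen, 36.4% were dense and 10.9% sparse. The background on 3L was then 20.4% dense and 21.6% sparse.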

Other observations

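The combined list named 2 regions of 3R as depleted of H4, of 14 in all. The first ran from 3102056 to 3103577 (1522 bp, score -0.016) and was 97.2% covered by a region that replicate 1 called enriched, from 3102066 to 3103544. That region had a score of 0.024, the lowest on 3R in its list. The second ran from 15721367 to 15722810 (1444 bp, score -0.058) and lay in no region of either replicate. Both were in windows that were neither dense nor sparse, and the nearest enriched region of the combined list was 53 bp from the first and 916 bp from the second.

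Neighbouring windows of 3R were less alike than those of the other arms. The shares of adjacent windows of 100 kb had a Pearson r of 0.42 in replicate 1 and 0.39 in replicate 2 over 274 pairs, against 0.54 to 0.57 and 0.46 to 0.52 on 2L, 3L and X. At 500 kb r was 0.052 and 0.010 on 3R, against 0.18 to 0.31 and 0.14 to 0.28. At 2000 kb the values of 3R were -0.020 and -0.042, and those of the other arms had no common sign. These values are across windows of the same libraries, and the difference between arms was not tested.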
